A study of Mus musculus with 12 samples.

Results

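The mitochondrially encoded genes were followed in immature mouse thymocytes with and without the zinc finger genes Zfp148 and Zfp281. Every row of the count tables whose symbol begins with mt- was taken, which gave 37 of 53656 gene rows: 13 mRNAs, 2 rRNAs and 22 tRNAs. RNA was counted in 12 libraries in 4 groups of 3, sorted from thymus. The dKO ImCD4 group is the double knockout, with loxP-flanked alleles of both genes (Zfp148 fl/fl; Zfp281 fl/fl) and Cd4-Cre, sorted as CD44low, CD4+CD8-, H2-Kb- and CD69+ cells. The Ctrl ImCD4 group has the same floxed alleles and gate and is Cd4-Cre negative. The dKO ImCD8 and Ctrl ImCD8 groups also carry both floxed genes and were sorted as CD44low, CD8+ CD4-, TCRb+ and CD69+ cells. Cd4-Cre acts in developing T cells, so other cells of the animal keep both genes. Because the controls lack Cre, an effect of Cre and the loss of the genes cannot be told apart.

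For ImCD8 the titles and the genotype labels are opposite: libraries titled dKO are marked Cd4-Cre negative and those titled Ctrl are marked Cd4-Cre+. Groups here follow the titles. Zfp281 was at 10.2 to 14.9 CPM (counts scaled to a common library size) in the libraries titled dKO ImCD8, against 112.5 to 127.9 CPM in those titled Ctrl ImCD8, and at 16.2 to 21.4 CPM in dKO ImCD4, against 440.9 to 561.7 CPM in Ctrl ImCD4. Zfp148 was also lower in every library titled dKO of each population, but fell less. It was at 63.0 to 68.9 CPM in dKO ImCD4, against 176.8 to 182.1 CPM in Ctrl ImCD4. In dKO ImCD8 it was at 45.6 to 62.8 CPM, against 162.4 to 171 CPM in Ctrl ImCD8. The log2 fold changes in ImCD4 and ImCD8 were -1.437 and -1.585 for Zfp148, and -4.708 and -3.217 for Zfp281. Every direction given for ImCD8 rests on those titles. Gene counts per library ran from 7315833 to 10943143. The third-listed library of each group stood apart from the others on the third principal component, and calls that change without those 4 libraries are given beside the results. The 5 markers of the ImCD4 gate summed to 2690 to 3079 CPM in dKO ImCD4, 2534 to 2890 CPM in Ctrl ImCD4, 287.9 to 315.1 CPM in dKO ImCD8 and 256.9 to 265.6 CPM in Ctrl ImCD8. Separate animals are not stated for the libraries of a group, and the p-values therefore reflect library-to-library spread that may be technical.

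Mitochondrial DNA is a small circular genome in the organelle's matrix. Its mRNAs encode core subunits of complexes I, III, IV and V of the respiratory chain and ATP synthase, its rRNAs form the mitochondrial ribosome and its tRNAs read the codons. Both strands are transcribed as long precursors, from which the tRNAs that punctuate them are cut to release the other RNAs. Everything else that the organelle needs to copy, transcribe and translate this genome comes from nuclear genes.

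All 37 members matched GENCODE M21 (GRCm38) by symbol, and 9 of them lie on the minus strand: mt-Nd6 and 8 tRNAs. Stretches of the mitochondrial genome have been copied into nuclear chromosomes, and the level of a member depends on whether its reads align to 1 place. Every 50-base window of each member was therefore looked up in all other annotated transcripts. mt-Co2, which encodes a subunit of cytochrome c oxidase (complex IV), had 100% of its windows in another transcript, and over 681 aligned bases it had 0 differences from the unprocessed pseudogene Gm28661. mt-Nd3, a complex I subunit, had 98.0% of its windows shared, with 1 difference over 345 bases from Gm28438. Their first 60 bases are shown to make the likeness visible, with a capital where a gene and its nuclear copy differ. They lie at chrM:7013-7072 and chrM:9459-9518 on the plus strand, and the copies at chr1:24615506-24615565 and chr1:24613060-24613119 on the minus strand.
mt-Co2: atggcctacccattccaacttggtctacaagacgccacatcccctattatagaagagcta
Gm28661: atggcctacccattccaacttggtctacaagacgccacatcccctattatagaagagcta
mt-Nd3: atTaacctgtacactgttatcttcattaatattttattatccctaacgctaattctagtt
Gm28438: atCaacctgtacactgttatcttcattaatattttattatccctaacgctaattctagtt

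The closest copies of 7 mRNAs lay together in a block of 4663 bases at chr1:24611535-24616197. The shared part was 99.9% of windows for mt-Co3 (complex IV), 99.5% for mt-Atp6 (ATP synthase, complex V) and 98.8% for mt-Nd4l (complex I). It was 62.2% for mt-Nd4 and 51.1% for mt-Co1, the catalytic subunit of complex IV. It was 8.19% for mt-Nd2, 7.61% for mt-Nd5 and 1.04% for mt-Rnr2, the large ribosomal RNA. No window of mt-Nd1, mt-Nd6, mt-Atp8, mt-Cytb, mt-Rnr1 (the small ribosomal RNA) or any tRNA was found in another annotated transcript. The search covers annotated transcripts, and unannotated nuclear sequence was not searched. mt-Atp8 begins between mt-Co2 and mt-Atp6, whose closest copies both lie in the chromosome 1 block. The bases between those 2 copies were not searched, so a copy of mt-Atp8 there would not have been seen. None of these closest copies has a row of its own name in the count tables. 3 members that carry most of the reads or stand alone among their kind are shown in lower case: the first 60 bases of mt-Cytb (chrM:14145-14204, plus strand) and of mt-Rnr2 (chrM:1094-1153, plus strand), and the whole proline tRNA mt-Tp (chrM:15356-15422, minus strand).
mt-Cytb: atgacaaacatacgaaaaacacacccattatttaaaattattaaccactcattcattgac
mt-Rnr2: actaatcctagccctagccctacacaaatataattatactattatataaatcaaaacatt
mt-Tp: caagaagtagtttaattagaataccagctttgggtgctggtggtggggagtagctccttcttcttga

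Of the 37 members 16 had counts, all 16 in every library and all 16 past the filter on low counts: the 13 mRNAs, both rRNAs and mt-Tp. The other 21 tRNAs had 0 counts in all 12 libraries, and 3 counts, the limit that a count of 0 allows, stand for 0.274 to 0.410 CPM per library. This limit covers counting only and is not a bound on the tRNA in the cells. The tRNA genes are 59 to 75 bases long, and recovery of RNA this short was not tested. mt-Tp had 7 to 45 counts per library and 351 in all. It lies on the minus strand, and without the strand setting of the counting its reads cannot be told apart from those of the opposite strand. The same holds for mt-Nd6.

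The 2 rRNAs made up 55.4% to 64.4% of the mitochondrial counts of a library, and mt-Rnr2 alone 45.7% to 53.2%. Complex I mRNAs made up 12.4% to 16.4%, mt-Cytb, the only complex III member, 10.1% to 13.4%, complex IV mRNAs 9.84% to 14.9% and the complex V mRNAs 0.492% to 0.761%. Per kilobase of transcript, the 5 mRNAs with over 95% of windows shared had mean levels of 2.92 to 163.7 CPM, with a median of 94.0, and the 6 mRNAs with under 10% shared had 27.1 to 1213 CPM, with a median of 241.2. mt-Atp8, at the low end of the second set, overlaps mt-Atp6 in the genome, and mt-Nd4l, at the low end of the first, overlaps mt-Nd4. The second set is defined by annotated transcripts only, and for mt-Atp8 the unannotated bases of the chromosome 1 block were not searched. The part of shared and overlapping sequence in these levels was not tested.

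**Figure D1:**
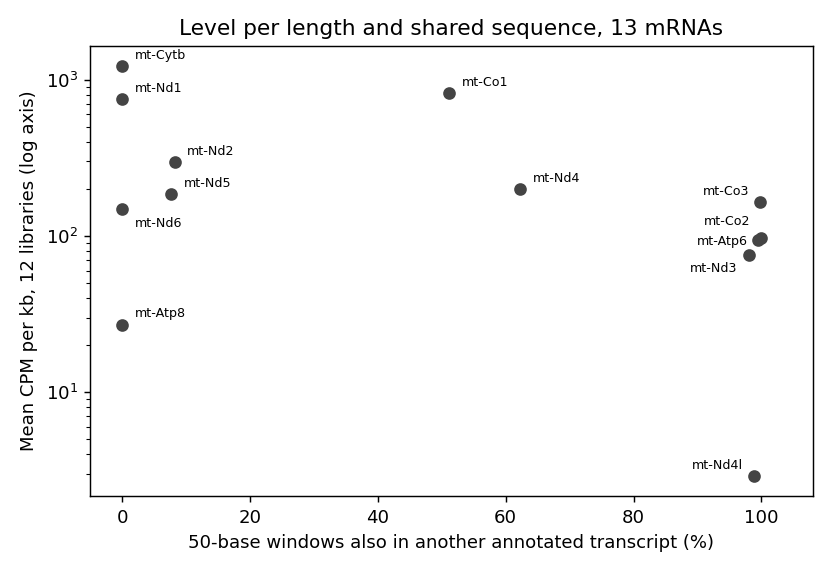
Mean level of each of the 13 mRNAs over 12 libraries (CPM per kb, log axis) against the percentage of its 50-base windows found in another annotated transcript. The 5 mRNAs at the right, with over 95% shared, lie between 2.92 and 163.7 CPM per kb, and mt-Cytb, with none shared, is at 1213.

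Mitochondrial RNA took the smallest share of counts in dKO ImCD4 and the largest in dKO ImCD8. The share of all gene counts was 0.921%, 0.633% and 0.961% in dKO ImCD4 libraries, against 1.31%, 1.08% and 1.09% in Ctrl ImCD4 libraries. It was 1.54%, 1.27% and 1.70% in dKO ImCD8 libraries, against 1.47%, 1.14% and 1.12% in Ctrl ImCD8 libraries. In ImCD4 every dKO library lay below every Ctrl library, and in ImCD8 the groups overlapped. The group means were 0.838% ± 0.179 in dKO ImCD4, 1.16% ± 0.132 in Ctrl ImCD4, 1.504% ± 0.216 in dKO ImCD8 and 1.24% ± 0.195 in Ctrl ImCD8 (SD, n = 3 each). The dKO mean was thus 0.724 times the Ctrl mean in ImCD4 and 1.21 times in ImCD8, and the ImCD8 mean was 1.79 times the ImCD4 mean in dKO, with no overlap, and 1.07 times in Ctrl, with overlap. The direction in Ctrl turned without replicate 1 of Ctrl ImCD8, where the ratio was 0.976. Without the third-listed libraries the dKO mean was 0.651 times the Ctrl mean in ImCD4 and 1.08 times in ImCD8. These shares sum the members and are a description with no test. The widest 95% Wilson interval of a library's share spanned 0.0167 percentage points, which covers counting error only. In bulk RNA, fewer mitochondria per cell, less RNA per mitochondrion and a different mix of cells cannot be told apart.

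**Figure D2:**
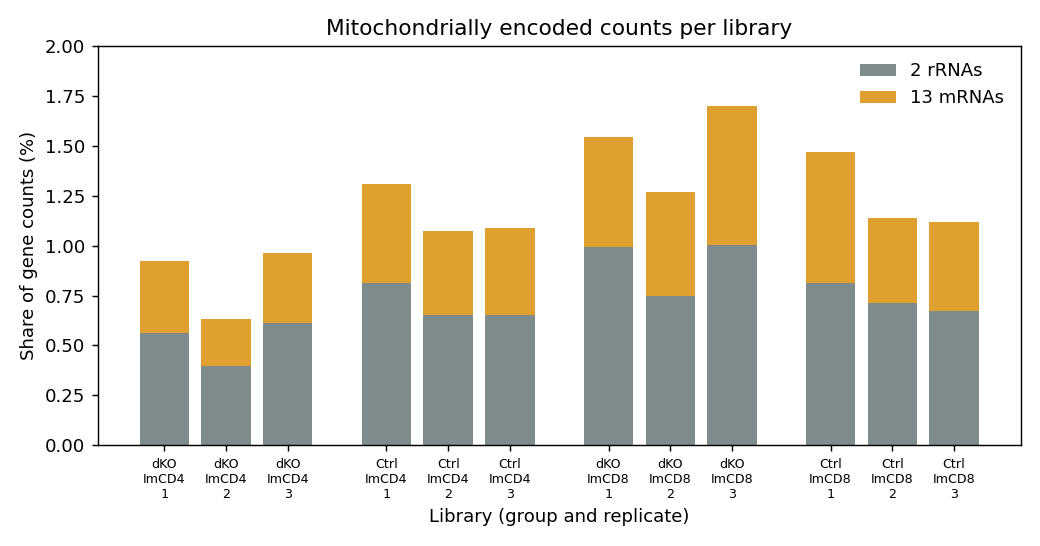
Share of all gene counts from mitochondrially encoded genes (%) in each of 12 libraries, as stacked bars of rRNAs (grey) and mRNAs (yellow). The tRNA mt-Tp is left out of the bars. The 3 dKO ImCD4 libraries, at 0.633% to 0.961%, lie below all other libraries, and the 3 dKO ImCD8 libraries, at 1.27% to 1.70%, overlap the Ctrl ImCD8 libraries.

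Member by member, the mean level was lowest in dKO ImCD4 for 16 of 16 members and highest in dKO ImCD8 for 15, the exception being mt-Tp. Among complex I genes, mt-Nd2 averaged 215.1 ± 40.2 CPM in dKO ImCD4, 288.6 ± 24.8 in Ctrl ImCD4, 391.3 ± 51.3 in dKO ImCD8 and 345.1 ± 68.2 in Ctrl ImCD8. mt-Nd5 averaged 220.2 ± 43.1 CPM in dKO ImCD4, 311.3 ± 14.6 in Ctrl ImCD4, 448.1 ± 74.0 in dKO ImCD8 and 380.0 ± 101.9 in Ctrl ImCD8. mt-Nd6, from the other strand, averaged 51.3 ± 9.03 CPM in dKO ImCD4, 71.3 ± 9.83 in Ctrl ImCD4, 104.0 ± 15.3 in dKO ImCD8 and 85.7 ± 17.8 in Ctrl ImCD8 (SD, n = 3 each throughout). In these 3 genes the ranges of dKO ImCD8 and Ctrl ImCD8 overlapped, and those of dKO ImCD4 lay below Ctrl ImCD4. The complex V gene mt-Atp6 averaged 48.6 ± 4.49 CPM in dKO ImCD4, 59.7 ± 4.17 in Ctrl ImCD4, 79.1 ± 4.04 in dKO ImCD8 and 70.1 ± 11.4 in Ctrl ImCD8. mt-Atp8, the smaller complex V subunit, averaged 4.92 ± 0.836 CPM in dKO ImCD4, 5.81 ± 0.272 in Ctrl ImCD4, 6.37 ± 0.773 in dKO ImCD8 and 5.03 ± 0.207 in Ctrl ImCD8. The tRNA mt-Tp averaged 2.51 ± 1.36 CPM in dKO ImCD4, 3.89 ± 0.605 in Ctrl ImCD4, 3.44 ± 0.818 in dKO ImCD8 and 2.70 ± 1.49 in Ctrl ImCD8, and its 4 groups overlapped. These are levels per gene, not per length, and are not compared between genes.

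In ImCD4 thymocytes 2 mitochondrial mRNAs were lower in dKO and passed the test, mt-Co2 and mt-Nd1, and no member was higher. mt-Co2 was at 54.8, 38.8 and 51.0 CPM in dKO ImCD4, against 76.0, 66.4 and 62.6 CPM in Ctrl ImCD4, with no overlap. Its log2 fold change was -0.50 ± 0.14 (SE), with edgeR adjusted p = 0.0271. The part in this result of its windows, 100% of which lie in another transcript, was not tested. mt-Nd1, a core subunit of complex I, was at 561.3, 410.3 and 584.4 CPM in dKO ImCD4, against 741.1, 703.4 and 704.9 CPM in Ctrl ImCD4, again with every dKO library lower. Its log2 fold change was -0.47 ± 0.14, with edgeR adjusted p = 0.0438. Of all 13383 genes tested, 6.16% were called lower. The call for mt-Nd1 was lost in 7 of 16 alternatives, with edgeR adjusted p up to 0.136: with the third-listed libraries left out or given a term, without any 1 of the Ctrl ImCD4 libraries, and without replicate 1 or 2 of dKO ImCD4. With the third-listed libraries left out, mt-Atp6 passed beside mt-Co2 (log2 fold change -0.39, edgeR adjusted p = 0.0193), where 12.3% of all genes were called in either direction. mt-Atp6 also has 99.5% of its windows in another transcript. The call for mt-Co2 was lost in 3 of 16, without replicate 1 or 2 of Ctrl ImCD4 or replicate 2 of dKO ImCD4, with edgeR adjusted p up to 0.113.

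The other 14 members did not pass, and all 16 had a negative log2 fold change, as had 47.5% of all genes. Their median was -0.47, beside 0.02 over all genes. mt-Cytb, the cytochrome b of complex III, was at 1063, 729.5 and 1013 CPM in dKO ImCD4, against 1554, 1302 and 1304 CPM in Ctrl ImCD4, a log2 fold change of -0.57 ± 0.18 with edgeR adjusted p = 0.0627. mt-Nd4 was at 191.2, 134.7 and 191.1 CPM in dKO ImCD4, against 297.7, 246.3 and 238.1 CPM in Ctrl ImCD4, with edgeR adjusted p = 0.0679. For both genes the groups did not overlap. For 11 of the 16 members every dKO library lay below every Ctrl library, where 15.7% of all genes did so, and 10 had an unadjusted p under 0.05, where 27.3% of all genes had. The members share a genome, precursor transcripts and libraries, so these counts are not independent observations.

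1 library lay lowest for most members. Replicate 2 of dKO ImCD4 was the lowest of all 12 libraries for 15 of 16 members, and without it edgeR called none of them, where 7.71% of all genes were called. That loss is not particular to this library. Without replicate 1 or replicate 2 of Ctrl ImCD4 edgeR also called none, where 7.94% and 8.78% of all genes were called. Reads outside any gene were 10.5% to 12.9% of the tallied reads in dKO ImCD4 and 13.6% to 16.4% in Ctrl ImCD4, with no overlap, and gene counts were also higher in each dKO ImCD4 library. The 6 myeloid and dendritic markers, none at 0, summed to 67.7 to 74.4 CPM in dKO ImCD4 and 41.4 to 49.6 CPM in Ctrl ImCD4. B cell markers summed to 5.67 to 7.75 CPM in dKO ImCD4 and 3.07 to 5.19 CPM in Ctrl ImCD4. Thymic epithelial markers summed to 5.55 to 6.96 CPM in dKO ImCD4 and 4.35 to 5.42 CPM in Ctrl ImCD4. The sums of the other marker lists overlapped. Of 5 ImCD8-gate markers 1 was called higher by edgeR (Runx3), of 5 T cell markers 1 (Cd3g) and of 5 ImCD4-gate markers 0. Of all genes 7.26% were called higher. The part of these values in the result was not tested.

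**Figure D3:**
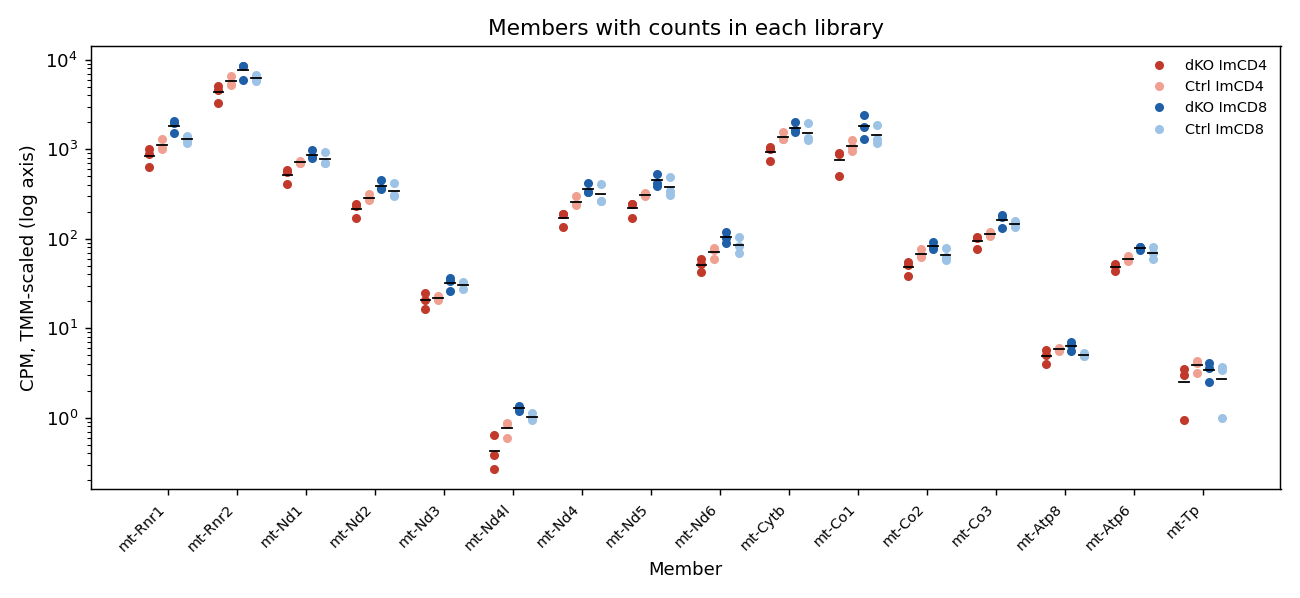
Level of the 16 members with counts (CPM on the TMM-scaled library size, log axis), with 1 point per library and the group mean as a line. For mt-Cytb the dKO ImCD4 libraries, at 729.5 to 1063 CPM, lie below the Ctrl ImCD4 libraries, at 1302 to 1554 CPM.

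In ImCD8 thymocytes no member passed the test between dKO and Ctrl by edgeR, where 6.14% of all genes were called. DESeq2 called 1, mt-Rnr1, where it called 7.29% of all genes, and limma-voom called 0, where it called 5.82%. By edgeR, 2 members, mt-Rnr1 and mt-Co2, had an unadjusted p under 0.05, where 18.8% of all genes had. mt-Rnr1 was at 2041, 1503 and 1976 CPM in dKO ImCD8, against 1422, 1282 and 1160 CPM in Ctrl ImCD8. The groups did not overlap, and the log2 fold change was 0.51 ± 0.18 with edgeR adjusted p = 0.124. mt-Rnr2 was at 8486, 5879 and 8490 CPM in dKO ImCD8, against 6705, 6071 and 5730 CPM in Ctrl ImCD8, with overlap and edgeR adjusted p = 0.380. All 16 members had a positive log2 fold change, from 0.04 to 0.51 with a median of 0.26, as had 51.4% of all genes. For 6 of them the sign turned negative in at least 1 alternative. Only mt-Rnr1, mt-Atp8 and mt-Nd4l were higher in every dKO library than in any Ctrl library, where 10.3% of all genes were. The dKO ImCD8 libraries also lay above every Ctrl ImCD8 library in the summed ImCD4-gate markers, of which 2 of 5 were called higher by edgeR (Cd40lg and Gata3), and 1 of 5 ImCD8-gate markers was called lower (Itgae). Of the markers tested, 1 of 2 for B cells and 1 of 1 for thymic epithelium (Epcam) were also called higher by edgeR. Of 5 T cell, 2 myeloid and dendritic and 2 erythroid and platelet markers 0 were called. Of all genes, edgeR called 2.62% higher and 3.53% lower. Summed B cell markers were at 22.5 to 36.7 CPM in dKO ImCD8 and 11.2 to 14.0 CPM in Ctrl ImCD8, and thymic epithelial markers at 12.3 to 22.1 CPM in dKO ImCD8 and 8.97 to 10.4 CPM in Ctrl ImCD8. Their part in the values was not tested.

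Whether the dKO effect differed between the populations was tested directly, as the ImCD8 effect minus the ImCD4 effect. No member passed by edgeR, where 0.433% of all genes did, while 12 had an unadjusted p under 0.05, where 9.98% of all genes had. DESeq2 called mt-Co2 and mt-Rnr1, where it called 1.05% of all genes, and limma-voom called 0, where it called 0.56%. mt-Co2 had the smallest p among the members: its difference on the log2 scale was 0.83 ± 0.19, with edgeR adjusted p = 0.101. For mt-Rnr1 it was 0.92 ± 0.25, with edgeR adjusted p = 0.199. All 16 differences were positive, with a median of 0.74, beside -0.01 over all genes. A dKO effect that is unlike in ImCD8 and ImCD4 is therefore not shown for any single member by edgeR.

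**Figure D4:**
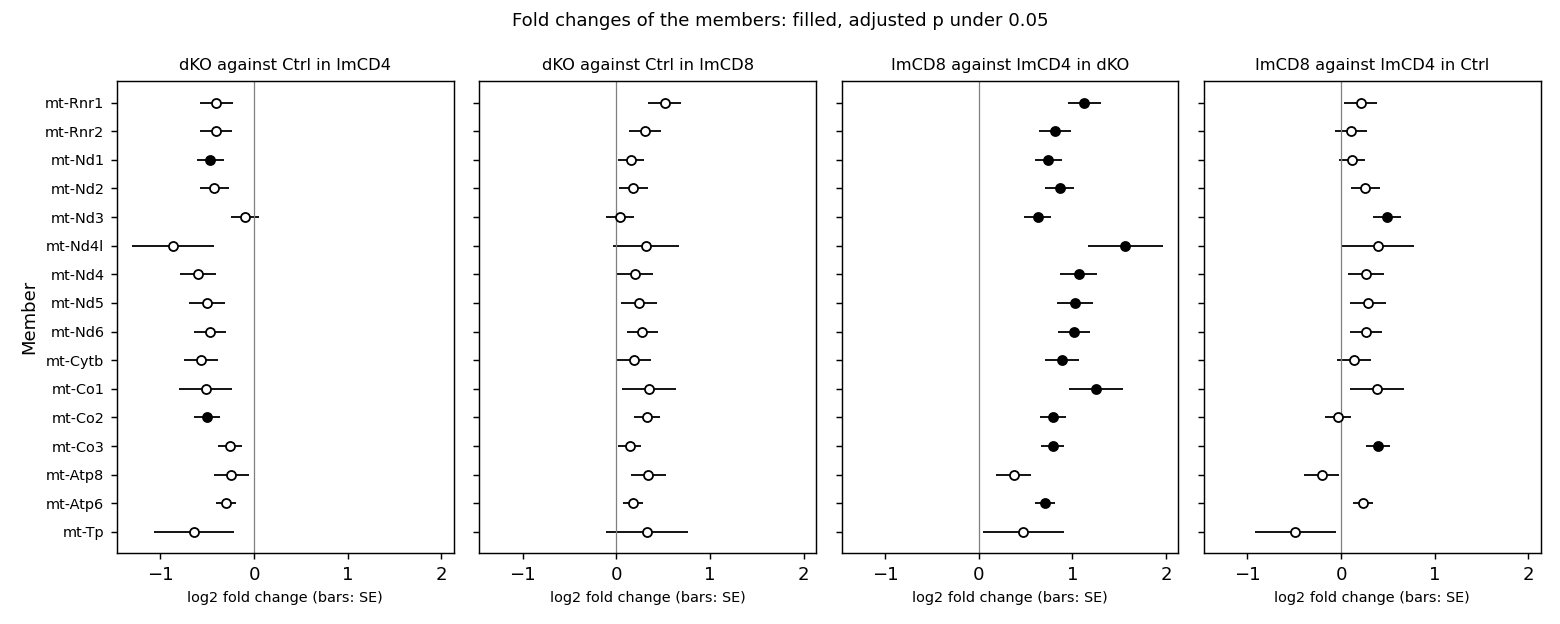
Log2 fold change with its SE for the 16 members with counts, in 4 panels: dKO against Ctrl in ImCD4, the same in ImCD8, ImCD8 against ImCD4 in dKO, and the same in Ctrl, with filled points for an adjusted p under 0.05. Filled points number 2 in the first panel, 0 in the second, 14 in the third and 2 in the fourth.

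Between the populations, dKO ImCD8 cells had more of 14 of the 16 members than dKO ImCD4 cells, and none was lower. mt-Atp8 and mt-Tp did not pass. Of all genes 22.1% were called higher in this comparison, and for the same 14 members the groups did not overlap, where 25.6% of all genes were higher without overlap. mt-Co1 was at 1772, 1312 and 2385 CPM in dKO ImCD8, against 894.2, 501.6 and 898.6 CPM in dKO ImCD4, a log2 fold change of 1.25 ± 0.29 with edgeR adjusted p = 0.00609. For mt-Rnr1 it was 1.13 ± 0.18, with edgeR adjusted p = 0.000318. mt-Nd4l had the largest log2 fold change, 1.57 ± 0.40 with edgeR adjusted p = 0.00470, on 35 counts in dKO ImCD8 and 13 in dKO ImCD4 over 3 libraries each. The complex I genes mt-Nd4, mt-Nd5 and mt-Nd6 had log2 fold changes of 1.07 ± 0.19, 1.02 ± 0.19 and 1.02 ± 0.17, with edgeR adjusted p = 0.00104, 0.00135 and 0.000416. The median over the members was 0.84. Reads with more than 1 alignment were 4.47% to 5.39% of the tally in dKO ImCD8 and 3.87% to 4.19% in dKO ImCD4, with no overlap. B cell markers summed to 22.5 to 36.7 CPM in dKO ImCD8 and 5.67 to 7.75 CPM in dKO ImCD4, and thymic epithelial markers to 12.3 to 22.1 CPM in dKO ImCD8 and 5.55 to 6.96 CPM in dKO ImCD4. The part of these values in the result was not tested. Without the third-listed library of each group 10 members were called, where 39.2% of all genes were called in either direction, and mt-Co1, mt-Nd5, mt-Nd6 and mt-Cytb no longer passed, with edgeR adjusted p = 0.102, 0.0569, 0.0534 and 0.0730.

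In the controls 2 members were higher in ImCD8 than in ImCD4, mt-Co3 and mt-Nd3, where 23.1% of all genes were called higher. mt-Nd3 was at 33.3, 27.2 and 32.0 CPM in Ctrl ImCD8, against 23.0, 20.8 and 22.2 CPM in Ctrl ImCD4, a log2 fold change of 0.49 ± 0.15 with edgeR adjusted p = 0.0133. mt-Co3 was at 157.3, 149.6 and 135.8 CPM in Ctrl ImCD8, against 120.0, 106.1 and 111.2 CPM in Ctrl ImCD4, with 0.39 ± 0.13 and edgeR adjusted p = 0.0206. For both genes the groups did not overlap, where 28.8% of all genes were higher in ImCD8 without overlap. The call for mt-Co3 was lost in 5 of 16 alternatives, with the third-listed libraries left out, without replicate 2 or 3 of Ctrl ImCD4 and without replicate 1 or 2 of Ctrl ImCD8, with edgeR adjusted p up to 0.0867, and that for mt-Nd3 in 1, without replicate 1 of Ctrl ImCD8. With the third-listed libraries left out mt-Atp6 passed beside mt-Nd3, with a log2 fold change of 0.31 and edgeR adjusted p = 0.0215. In that setting 40.8% of all genes were called in either direction. Both genes have nearly all of their windows in a nuclear copy, and reads with more than 1 alignment were 4.61% to 4.76% in Ctrl ImCD8 and 4.001% to 4.25% in Ctrl ImCD4. B cell markers summed to 11.2 to 14.0 CPM in Ctrl ImCD8 and 3.07 to 5.19 CPM in Ctrl ImCD4. Thymic epithelial markers summed to 8.97 to 10.4 CPM in Ctrl ImCD8 and 4.35 to 5.42 CPM in Ctrl ImCD4. The sums of the myeloid and dendritic and of the erythroid and platelet markers overlapped. The part of the shared windows and of these values in the result was not tested. Of the other 14 members, 11 had a positive and 3 a negative log2 fold change, the negative ones being mt-Co2, mt-Atp8 and mt-Tp. The median over all 16 was 0.25. The 2 population comparisons differ by the same quantity as the 2 dKO effects, for which no member passed, so the larger number of calls in dKO is not shown to be a difference from Ctrl.

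The balance of the rRNAs was examined after the values were seen. Counts of mt-Rnr1 per count of mt-Rnr2 were 0.233 to 0.256 in dKO ImCD8 and 0.202 to 0.212 in Ctrl ImCD8. They were 0.189 to 0.199 in dKO ImCD4 and 0.191 to 0.198 in Ctrl ImCD4. The dKO ImCD8 libraries lay above all others, and the ImCD4 groups overlapped. The Ctrl ImCD8 libraries also lay above every ImCD4 library, so a higher ratio in ImCD8 is present in the controls as well. Both RNAs come from neighbouring positions in the genome, and the ratio, chosen from its values, is given with no test.

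**Figure D5:**
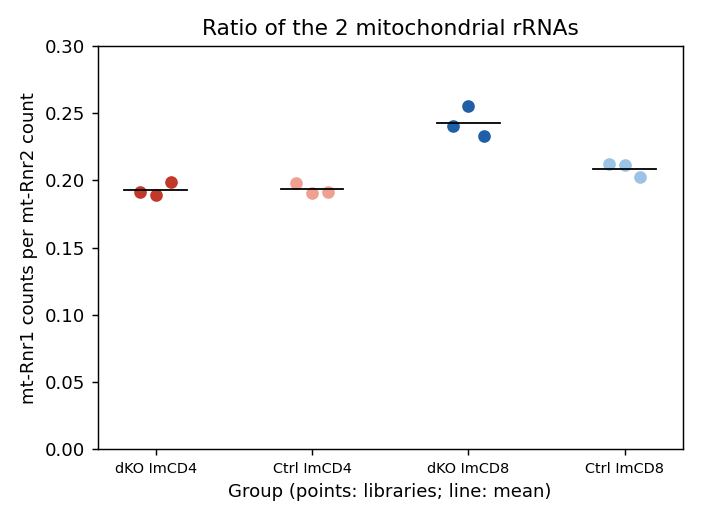
Counts of mt-Rnr1 per count of mt-Rnr2 in each library, with the group mean as a line. The dKO ImCD8 libraries lie at 0.233 to 0.256, the Ctrl ImCD8 libraries at 0.202 to 0.212 and all ImCD4 libraries at 0.199 or below.

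Nuclear genes that keep up and read out the mitochondrial genome were counted from 5 lists. Of all genes, edgeR called 13.4% in either direction in ImCD4 and 6.14% in ImCD8, DESeq2 13.6% and 7.29%, and limma-voom 18.2% and 5.82%. Of 18 tested genes of mitochondrial DNA replication and upkeep, 10 of mitochondrial transcription and 33 of mitochondrial RNA processing and decay, edgeR and DESeq2 called 0 in either population. In ImCD4, unadjusted edgeR p-values under 0.05 numbered 1, 1 and 5 in these lists, and limma-voom called 1, 1 and 0. In ImCD8 they numbered 4, 0 and 3, and limma-voom called 0 in each. Of 33 translation factors and tRNA synthetases 1 was called, in both populations: Mrrf, which releases mitochondrial ribosomes from mRNA after translation. In that list DESeq2 called 1 in each population and limma-voom 2 in ImCD4 and 1 in ImCD8. Mrrf was at 13.7, 13.8 and 15.5 CPM in dKO ImCD4, against 23.8, 17.4 and 19.6 CPM in Ctrl ImCD4. It was at 19.6, 17.8 and 18.8 CPM in dKO ImCD8, against 30.3, 28.5 and 26.2 CPM in Ctrl ImCD8. The log2 fold changes were -0.50 ± 0.13 in ImCD4 and -0.60 ± 0.12 in ImCD8, with edgeR adjusted p = 0.0171 and 0.00789 and no overlap in either, and the ImCD4 call was lost in 3 of 16 alternatives, without replicate 1 of Ctrl ImCD4 or replicate 1 or 2 of dKO ImCD4, with edgeR adjusted p up to 0.105.

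Of 8 regulators of mitochondrial biogenesis 1 was called in ImCD4 and 0 in ImCD8, where 1 had an unadjusted edgeR p under 0.05 and DESeq2 and limma-voom called 0. A share of 1 in 8 is near that of all genes in ImCD4. The 1 was Myc, a transcription factor of growth. It was at 164.9, 181.4 and 200.8 CPM in dKO ImCD4, and at most at 115.7 CPM in Ctrl ImCD4, whose mean was 108.8 ± 7.38 (SD, n = 3), with no overlap. Its log2 fold change was 0.74 ± 0.17, with edgeR adjusted p = 0.0138, and the call was lost in 2 of 16 alternatives, without replicate 1 of Ctrl ImCD4 or replicate 3 of dKO ImCD4, with edgeR adjusted p up to 0.0581.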

How the data were processed

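RNA was isolated with a column kit and made into libraries with a SMARTer low-input kit, per the labels' protocols. Per the submitters' processing notes, cutadapt 1.18, STAR 2.6.1, HTSeq and the genome build mm10 were used by the authors. Neither annotation nor strandedness of the counting is given in the sources used here. The authors deposited unnormalized counts by gene symbol, 53656 rows a library. A further 5 summary rows entered neither library sizes nor tests: in all libraries reads outside genes were 10.5% to 16.4% of the tally, ambiguous reads 5.37% to 5.82% and multiply aligned reads 3.87% to 5.39%.

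The fit used edgeR 4.0.16 under R 4.3.3. Genes kept by filterByExpr (minimum count 10, minimum total 15) numbered 13383. All 12 libraries entered 1 robust quasi-likelihood fit with TMM scaling, 4 group means and 8 residual degrees of freedom. Tests were two-sided, with Benjamini-Hochberg adjustment over all 13383 genes and a threshold of 0.05. Levels are CPM on the TMM-scaled library size, except that levels per kilobase are on the unscaled sum of gene counts of each library. Log2 fold changes carry the SE of the fit. Alternatives were RLE, library size alone, scaling without mitochondrial genes, DESeq2 1.42.0, limma-voom (limma 3.58.1) with quality weights, no filter, over 5 CPM in 3 libraries, only the libraries compared, the third-listed libraries left out or given a term, and each library left out. No pair of libraries within a group agreed within sampling noise (chi-square per degree of freedom at least 3.84). The code was tested on simulated data.

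The members, gene lists and tests were chosen with earlier results of these data known. All mRNAs, rRNAs and tRNAs past the filter are named, as are up to 3 called genes per nuclear list and dKO contrast. Sequences and positions come from GENCODE M21 (GRCm38). The sequence windows were 50 bases. Levels of single B cell markers are not reported here.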

Additional observations from a re-analysis of the deposited data

How the results depend on the processing

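The number of members called between dKO and Ctrl in ImCD4, 2 in the edgeR test, was 7 with DESeq2, 4 with limma-voom, 6 with no filter, 7 of 15 tested with only the libraries compared and 1 with a term for the third-listed libraries. Of all genes, these settings called 13.6%, 18.2%, 7.57%, 15.5% and 20% in either direction. Leaving out 1 library gave 0 to 2, where 7.71% to 10.8% of all genes were called. In ImCD8 the count of 0 became 1 with DESeq2 and 1 with no filter, where 7.29% and 4.57% of all genes were called. For the difference of the 2 effects it was 2 with DESeq2 and 4 with no filter, where 1.05% and 0.833% of all genes were called. With 1 library left out it was 0 to 1. The 1 was mt-Co2 without replicate 1 of Ctrl ImCD8, where 0.307% of all genes were called. ImCD8 against ImCD4 gave 10 to 14 in dKO over all alternatives, where 21.2% to 49.9% of all genes were called in either direction. In Ctrl it gave 0 to 3 with 1 library left out, where 38.9% to 40.7% of all genes were called. The 0 was without replicate 1 of Ctrl ImCD8. The cause was not tested, except that some alternatives use fewer samples or other gene numbers by construction. The ratios of the summed share moved by less than the spread between libraries in all 48 alternatives, though ImCD8 over ImCD4 in Ctrl, 1.07, turned to 0.976 without replicate 1 of Ctrl ImCD8. No called member changed sign. No paired analysis was possible because the labels give no replicate numbers shared between groups. Depth limits mt-Nd4l (3 to 13 counts a library), mt-Tp and mt-Atp8 (35 to 70 counts).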

Other observations

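The same nuclear lists were counted between the populations, where edgeR called 22.1% of all genes higher and 21.6% lower in ImCD8 in dKO, and 23.1% higher and 22.1% lower in Ctrl. Of the 18 upkeep genes, 3 were higher and 3 lower in ImCD8 than in ImCD4 in dKO, and 9 higher and 2 lower in Ctrl, by edgeR. The dKO counts are below the shares of all genes, and nothing particular to the list is read from either. Polg, the catalytic subunit of the mitochondrial DNA polymerase, was lower in ImCD8 in both, with log2 fold changes of -1.41 ± 0.10 in dKO (edgeR adjusted p = 1.09e-08) and -1.52 ± 0.10 in Ctrl (edgeR adjusted p = 4.92e-09). Mrm1, which methylates mitochondrial ribosomal RNA, was higher in ImCD8, by 1.05 ± 0.13 in dKO (edgeR adjusted p = 7.73e-06) and 1.22 ± 0.13 in Ctrl (edgeR adjusted p = 2.13e-06) on the log2 scale. Tfam, which packages mitochondrial DNA and starts its transcription, passed in Ctrl, with a log2 fold change of 0.30 ± 0.07 (edgeR adjusted p = 0.00298), and was the only one of 10 transcription genes called there. In dKO 0 of the 10 were called by edgeR, DESeq2 or limma-voom, and 2 had an unadjusted edgeR p under 0.05. These genes were chosen by the size of their change among the called members of each list.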
